A study of Mus musculus with 868 samples.

Results

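The lungs of mice given cisplatin were compared with the lungs of 7 other treatment groups of the same library set. The cisplatin lungs were 2 of the 36 lung libraries and of the 868 libraries of the series. The reference held 14 libraries, 2 from each of Clozapine, Dox (2 mg per mL), EMPA (2 weeks), Lenalidomide, Repatha, Teriparatide and CMCTween (0.5% CMC with 0.25% Tween80). The mice were C57BL/6N, and the study covered 24 of their tissues and 18 treatments by 3′ mRNA sequencing, in which reads come from the transcript end and gene length does not scale the count. Its title names the prediction of human clinical outcomes as the purpose. The comparison asks which lung genes were higher or lower after cisplatin. All 8 groups share the strain and the tissue. No dose or time was given for cisplatin, and no vehicle was given for any drug. The abbreviations Dox and EMPA are those of the labels. The 2 aripiprazole lungs of the same set were left out because they carry testis transcripts. The labels do not say whether replicates are separate mice. The p-values and SEs rest on the spread between the 2 libraries within each group, which may be technical. Differences among the 7 reference groups do not enter that spread.

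All 16 libraries carried lung transcripts. Over them, Sftpc, the surfactant protein C gene of alveolar type 2 cells, ranged between 8738 and 13200 CPM (counts scaled to a common library size). Scgb1a1, the secretory protein of club cells, ranged between 17920 and 28970 CPM, and Ager, a marker of alveolar type 1 cells, between 2049 and 3865 CPM. The cisplatin libraries, replicates 1 and 3, held 1017753 and 1195002 counts, against 719888 to 1718139 counts in the 14 others. A gene with 1 count in a cisplatin library therefore sat near 1 CPM, which limits what can be said of genes in that range. Both libraries of Teriparatide and of Lenalidomide differed more from each other than those of any other group did. The chi-square per gene between the libraries of a group was 17 in Teriparatide and 6.04 in Lenalidomide, against 2.24 in cisplatin and 1.38 to 2.66 in the other 5 groups.

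Cisplatin is a platinum drug that crosslinks bases of DNA. Such damage stabilises p53, a transcription factor that switches on genes for cell cycle arrest, apoptosis, DNA repair and its own degradation. The lung is exposed to the whole blood flow, holds a dense capillary bed and a large pool of leukocytes, and is made mostly of cells that seldom divide.

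Of 10515 genes tested, 447 were higher in the cisplatin lungs (4.25%) and 391 were lower (3.72%), which is 838 in all (7.97%). These calls used edgeR's quasi-likelihood F test on the counts, with the cisplatin mean set against the equally weighted mean of the 7 groups and a Benjamini-Hochberg adjusted p under 0.05. Each of the other 7 groups, set against the remaining 7 in the same way, gave 4 to 40 calls, with 4 for EMPA (0.0380%), 5 each for Dox and Teriparatide (0.0476%), 7 for CMCTween (0.0666%), 17 for Clozapine (0.162%), 33 for Repatha (0.314%) and 40 for Lenalidomide (0.380%). Both cisplatin libraries lay above all 14 others for 507 genes (4.82%) and below them for 466 (4.43%). Of the genes past the test, 339 higher ones (3.22%) and 310 lower ones (2.95%) were also outside that range. The median log2 fold change over all genes tested was 0.01. Leaving out cisplatin replicate 1 gave 158 higher and 103 lower genes, and leaving out replicate 3 gave 259 and 174.

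**Figure D1:**
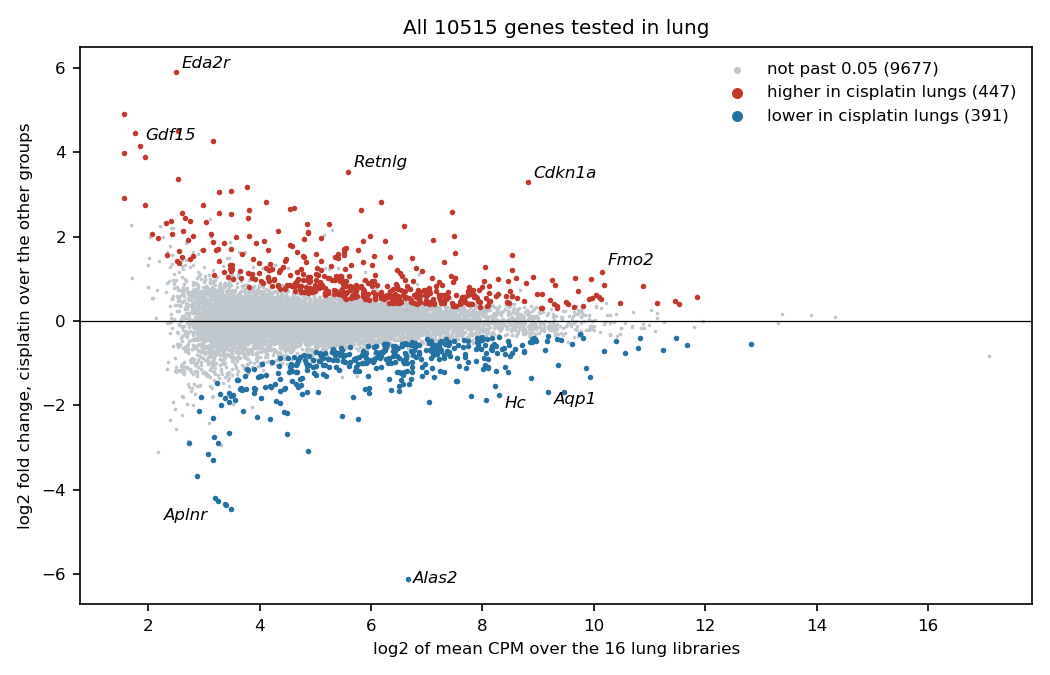
Log2 fold change of cisplatin lungs over the other groups (vertical axis) against log2 of the mean CPM over the 16 libraries (horizontal axis), 1 point a gene. The 447 genes higher in cisplatin lungs are red and the 391 lower ones blue, with Eda2r and Alas2 at the extremes and Cdkn1a at a high level.

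Targets of p53 were higher as a group. Of 31 members, 25 passed the filter on low counts, 17 of these were higher and 0 lower, and 15 lay above all 14 other libraries in both cisplatin lungs. Over all genes tested, 4.25% were higher, 3.72% lower and 4.82% above all 14 others. Those shares are the background for each list count below. Their median log2 fold change was 1.24, against 0.01 over all genes. The filter keeps genes that are high in either group, so the 25 are not all members, and 6 others, among them Bax and Ddb2, had too few counts.

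Cdkn1a, which encodes the p21 inhibitor of cyclin-dependent kinases (mm10 chr17:29090976-29100727), had 2003 and 2045 CPM in the cisplatin lungs. In the other lungs the lowest, median and highest library had 75.7, 212 and 473 CPM. Both cisplatin libraries were above every other library by a wide margin, with a log2 fold change of 3.29 ± 0.20 (SE) and an edgeR adjusted p of 1.06e-09. Trp53cor1, a long noncoding RNA gene that neighbours Cdkn1a on the opposite strand (chr17:29057430-29079179), had 11.4 and 18.6 CPM in the cisplatin lungs, against at most 3.56 CPM in the others (log2 fold change 3.99 ± 0.59). The groups did not overlap for this gene either, although the values rest on 35 counts in both cisplatin libraries together. Mdm2, the ubiquitin ligase that degrades p53, had 227 and 149 CPM in the cisplatin lungs, with 41.5, 67.5 and 92.1 CPM as the lowest, median and highest of the others (log2 fold change 1.53 ± 0.17, edgeR adjusted p 4.29e-06). Ccng1, a cyclin that acts in the same loop, had 172 and 193 CPM in the cisplatin lungs, against 25.6, 47.5 and 56.1 CPM (log2 fold change 2.02 ± 0.12). Both regulators of p53 itself were thus above the range of the 14 in each cisplatin lung.

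Genes of p53-dependent apoptosis rose to different degrees. Eda2r, a death receptor of the tumour necrosis factor family, had 40.8 and 34.8 CPM in the cisplatin lungs, against 0, 0.66 and 2.84 CPM as the lowest, median and highest of the others. It had the largest log2 fold change of any named gene (5.90 ± 0.46), from 86 counts in the 2 cisplatin libraries and 13 in the 14 others. Aen, an exonuclease that degrades nuclear DNA in dying cells, had 92.1 and 85.7 CPM in the cisplatin lungs, against 7.34 to 29.9 CPM (log2 fold change 2.66 ± 0.22). Phlda3, an inhibitor of the kinase Akt, had 87.4 and 98.6 CPM in the cisplatin lungs, against 7.12 to 22.8 CPM (2.69 ± 0.19). Among BH3-only activators, Bbc3 (Puma) rose by a log2 of 1.53 ± 0.19 and Pmaip1 (Noxa) by 1.24 ± 0.33, and the death receptor Fas by 0.63 ± 0.17. The log2 fold changes of these 3 were smaller than those of Eda2r, Aen and Phlda3, and the differences between genes were not tested.

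Stress and feedback genes of the list also rose. Gdf15, a secreted stress hormone of the TGF-beta family, had 10.4 and 29.9 CPM in the cisplatin lungs, against at most 2.81 CPM in the others (log2 fold change 4.15 ± 0.56). Trp53inp1, a cofactor of p53, had 525 and 510 CPM in the cisplatin lungs, against 66.0, 126 and 204 CPM (2.02 ± 0.15). Sesn2, an antioxidant inhibitor of mTORC1 signalling, rose by 2.07 ± 0.49, Zmat3, an RNA-binding protein, by 1.39 ± 0.21, and Polk, a translesion DNA polymerase, by 1.05 ± 0.23. Ddit4l, another mTORC1 inhibitor, rose by 1.70 ± 0.37, Dcxr, a carbonyl reductase, by 0.77 ± 0.16, and Btg2, an antiproliferative gene, by 0.61 ± 0.13. Of the 8 tested members that did not pass, Sesn1 had a log2 fold change of 0.35 ± 0.26 and Plk2 of 0.39 ± 0.23. The count of 17 was 12 without cisplatin replicate 1, where Sesn2, Fas, Pmaip1, Btg2 and Ddit4l were lost, and 11 without replicate 3, where Sesn2, Fas, Pmaip1, Polk and Dcxr were lost (edgeR adjusted p 0.13 to 0.48 over both) and Gdf15 fell below the filter on low counts and was not tested. It was 10 by DESeq2 and 10 against CMCTween alone.

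**Figure D2:**
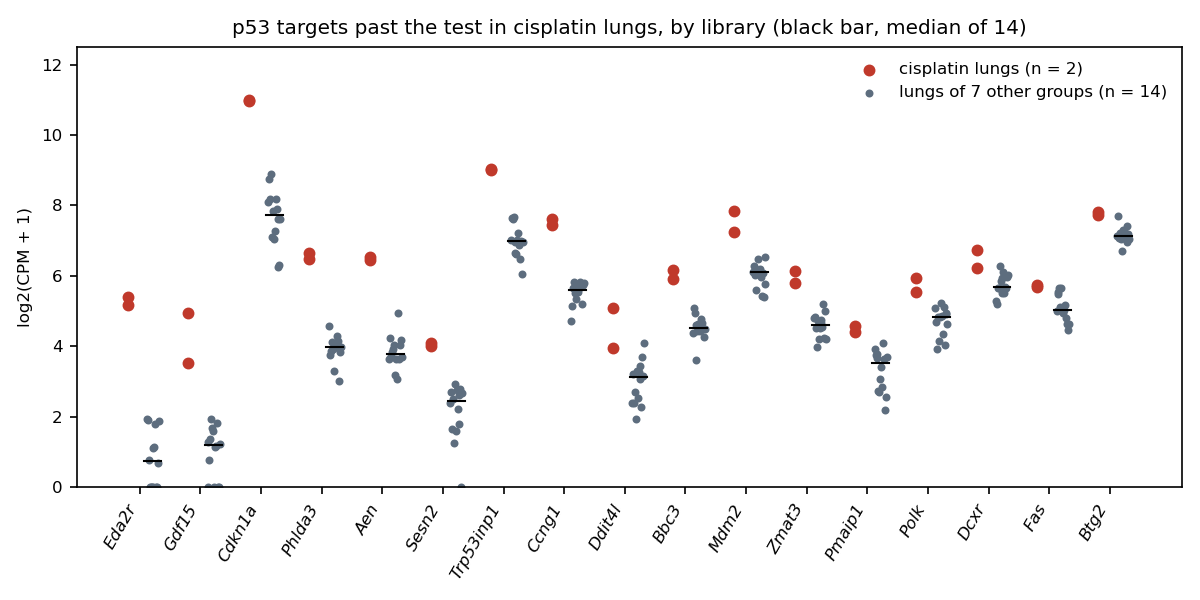
Level of the 17 p53 targets past the test, as log2(CPM + 1), in each of 2 cisplatin lungs (red) and 14 other lungs (grey), with the median of the 14 as a black bar. Both red points lie above all grey points for 15 genes, the exceptions being Ddit4l and Dcxr.

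The promoters of 4 of the risen targets are shown because each holds a match to the p53 decamer, the 10-base unit of which a full p53 site has a pair. The windows are RefSeq promoters of build GRCm38.p6, 250 bases before to 50 after a gene start, printed 5′ to 3′ on the gene's strand, and the capitals mark the decamer matches. They are chr17:29090729-29091028 (plus) for Cdkn1a, chr10:117710709-117711008 (minus) for Mdm2, chr11:40755237-40755536 (minus) for Ccng1 and chr7:78895677-78895976 (plus) for Aen.
Cdkn1a: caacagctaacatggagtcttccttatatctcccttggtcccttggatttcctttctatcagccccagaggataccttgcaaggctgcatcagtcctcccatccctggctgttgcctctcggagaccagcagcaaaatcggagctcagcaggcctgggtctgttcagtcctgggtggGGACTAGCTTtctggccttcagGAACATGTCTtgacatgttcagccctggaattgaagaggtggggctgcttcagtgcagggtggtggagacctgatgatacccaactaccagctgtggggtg
Mdm2: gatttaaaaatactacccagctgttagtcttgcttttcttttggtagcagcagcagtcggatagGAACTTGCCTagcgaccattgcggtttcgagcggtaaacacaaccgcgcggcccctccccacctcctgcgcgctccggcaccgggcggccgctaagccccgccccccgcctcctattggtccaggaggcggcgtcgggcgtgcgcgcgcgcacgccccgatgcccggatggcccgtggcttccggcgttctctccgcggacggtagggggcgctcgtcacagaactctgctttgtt
Ccng1: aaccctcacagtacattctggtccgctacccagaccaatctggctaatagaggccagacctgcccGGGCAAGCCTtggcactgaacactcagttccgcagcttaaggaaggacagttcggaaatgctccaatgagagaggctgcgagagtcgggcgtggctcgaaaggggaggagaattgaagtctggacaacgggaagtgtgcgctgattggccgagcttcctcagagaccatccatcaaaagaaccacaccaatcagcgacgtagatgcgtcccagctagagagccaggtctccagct
Aen: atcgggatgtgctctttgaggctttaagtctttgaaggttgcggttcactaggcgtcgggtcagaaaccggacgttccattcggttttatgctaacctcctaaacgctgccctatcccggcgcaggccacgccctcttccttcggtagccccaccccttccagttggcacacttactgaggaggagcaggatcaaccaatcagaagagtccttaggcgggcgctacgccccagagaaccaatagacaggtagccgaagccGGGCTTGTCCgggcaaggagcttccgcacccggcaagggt
The decamer was searched on both strands with no mismatch. It occurred in 9 of the 32 windows of the p53 list (28.1%), against 8.36% of all 32851 windows in the table. Windows were there for 21 of the 31 members, and 8 of them held a match, the others being Polk, Ddit4l, Bax and Sesn1. A match is a description of the letters, not a bound site.

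The response of Cdkn1a was set beside that of other tissues of the cisplatin group, each fitted against the same 7 treatments. Lung stood 6th of 24 tissues by log2 fold change and first by the CPM level in cisplatin samples. Liver (6.95 ± 0.15) and kidney (6.22 ± 0.14) had the largest fold changes, and lung (3.29 ± 0.20) did not stand clear of its neighbours in the order, white adipose tissue (3.35 ± 0.23) and heart (2.96 ± 0.16). Cdkn1a passed the test in 22 tissues, and not in ileum (0.18 ± 0.31) or testis (0.14 ± 0.20).

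Direct tests of the difference in response were made against heart and spleen, in joint fits of 32 libraries. The cisplatin libraries of all 3 tissues are replicates 1 and 3. The labels do not say whether the same mice gave them, and the fits treated all libraries as independent. Of 10906 genes tested, 289 responded differently in lung and heart (2.65%), 154 with a positive difference (1.41%) and 135 with a negative one (1.24%). Of 11297 genes, 288 responded differently in lung and spleen (2.55%), 83 with a positive difference (0.735%) and 205 with a negative one (1.81%). On their own, the cisplatin hearts had 9.59% of genes past the test and the cisplatin spleens 9.21%. Among 24 p53 targets, 4 differed from heart and 4 from spleen, each with a larger log2 fold change in lung. Against heart these were Mdm2 (difference 1.35 ± 0.30), Ccng1 (2.20 ± 0.15), Eda2r (3.43 ± 0.81) and Aen (2.05 ± 0.30). In heart, Ccng1 had 405 and 389 CPM in the cisplatin samples, against 365 to 514 CPM in the others, and did not pass the test there. Ccng1 and Aen kept their calls in every setting tried. Mdm2 lost its call without lung or heart cisplatin replicate 1 (edgeR adjusted p 0.14 and 0.21) and against CMCTween alone (0.28), and Eda2r without lung or heart replicate 1 (0.055 and 0.10). The difference for Eda2r turned to -0.21 when CMCTween alone was the reference in both tissues. Against spleen the 4 were Trp53inp1 (2.1 ± 0.21), Aen (1.49 ± 0.36), Ccng1 (0.93 ± 0.21) and Btg2 (0.75 ± 0.19). Trp53inp1 kept its call in every setting tried. Btg2 lost it without any 1 of the 4 cisplatin libraries (edgeR adjusted p 0.066 to 0.20), Aen without either lung library or spleen replicate 3 (0.056 to 0.20), Ccng1 without lung replicate 3 or either spleen library (0.073 to 0.10), and these 3 against CMCTween alone (0.087 to 0.45). Trp53inp1 had 218 and 201 CPM in the cisplatin spleens, against 180 to 292 CPM in the other spleens. For Eda2r and Perp, another member, the differences from spleen were 3.38 and 3.08. Their SEs of 8589 and 5252 show that the joint fit with spleen could not test either gene. For Cdkn1a neither difference passed (0.34 ± 0.34 against heart, 0.36 ± 0.35 against spleen, edgeR adjusted p 0.76 and 0.71). Its level rose in all 3 tissues. Leaving out heart cisplatin replicate 1 gave 79 genes in place of 289, and leaving out spleen cisplatin replicate 1 gave 125 in place of 288.

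**Figure D3:**
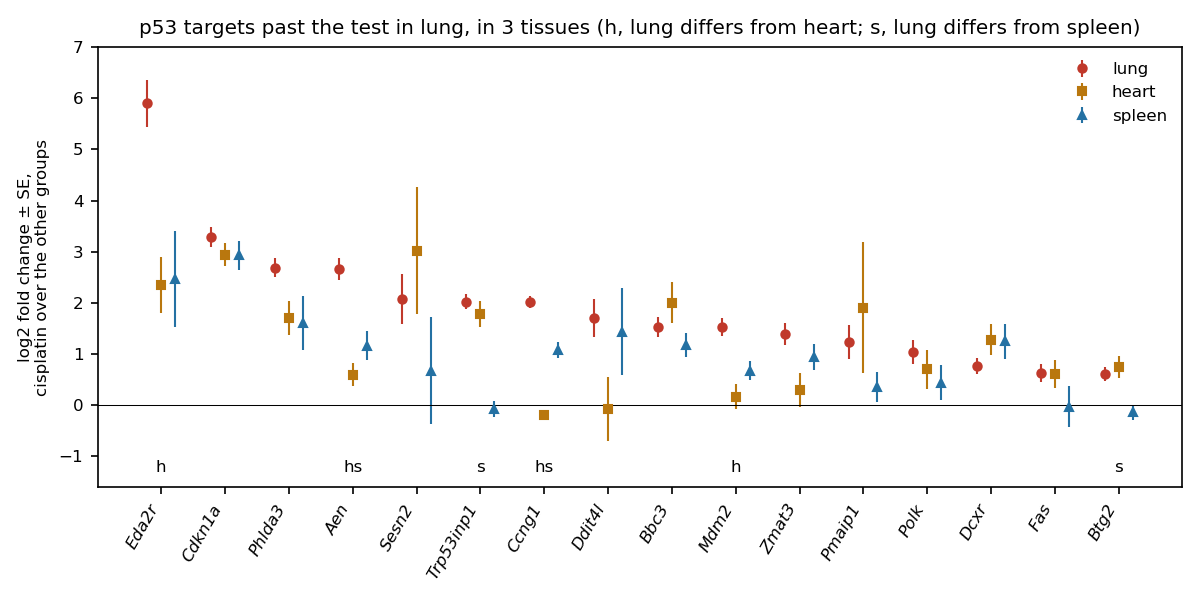
Log2 fold change with its SE for p53 targets past the test in lung, in lung (red circles, 16-library fit), heart (brown squares) and spleen (blue triangles, both from the joint fits). Letters mark genes whose response in lung differed from heart (h) or spleen (s). The difference of Eda2r from spleen could not be tested. Cdkn1a lies near 3 in all 3 tissues, while Ccng1 is near 0 in heart and Trp53inp1 near 0 in spleen.

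Genes of cell division were low in all lungs and only some were lower after cisplatin. Of 24 members 9 were tested, and 2 were lower and 0 higher, with a median log2 fold change of -0.61. Over all genes tested, 3.72% were lower. Mki67, a marker of cycling cells, had 1.90 and 7.27 CPM in the cisplatin lungs, with 8.15, 16.4 and 24.4 CPM as the lowest, median and highest of the others (log2 fold change -1.70 ± 0.42, edgeR adjusted p 0.013). Top2a, the topoisomerase of mitotic chromosomes, had 10.4 and 13.7 CPM in the cisplatin lungs, against 18.7 to 33.4 CPM (-1.02 ± 0.27, edgeR adjusted p 0.021). Both genes were below the range of the 14 in each cisplatin lung. Nusap1, a spindle protein, did not pass (-1.28 ± 0.47). Neither call held without cisplatin replicate 1 (edgeR adjusted p 0.34 and 0.33), nor that of Top2a without replicate 3 (0.11), and DESeq2 called 0 of the list. In bulk lung, fewer cells of a type and less RNA per cell cannot be told apart, here and in all results below. Gtse1 and Ckap2, a pair of microtubule-binding proteins of the G2 and M phases, went the other way. Gtse1 had 18 and 22.6 CPM in the cisplatin lungs, against at most 2.67 CPM (log2 fold change 4.47 ± 0.52), and Ckap2 had 10.4 and 10.5 CPM, against at most 7.12 CPM (2.92 ± 0.56). Their response was larger in lung than in spleen, by 4.82 ± 0.79 and 2.87 ± 0.76 on the log2 scale. The difference for Ckap2 was not past the test without any 1 of the 4 cisplatin libraries (edgeR adjusted p 0.082 to 0.20), with the replicate block (0.13) or against CMCTween alone (0.28), and in lung alone Ckap2 fell below the filter on low counts when either cisplatin library was left out.

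Of 14 tested DNA replication genes and 8 tested genes of crosslink repair, 0 passed in either direction, by edgeR. Mcm7, a subunit of the replicative helicase, had a log2 fold change of -0.62 ± 0.22, and Pcna, the sliding clamp, of -0.60 ± 0.24. Rev1, a translesion polymerase, had 11.4 and 23.4 CPM in the cisplatin lungs, against 1.34 to 15.4 CPM, and missed the threshold (1.22 ± 0.39, edgeR adjusted p 0.059). Of the 21 members of the crosslink repair list, 12 had under 10 CPM in every library, where a difference would not be detectable at this depth.

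Of 7 tested genes of platinum handling, 3 were higher and 0 lower. They were the metallothioneins Mt1 and Mt2, small cysteine-rich proteins that bind metals including platinum, and Lrrc8a, a subunit of the volume-regulated anion channel. Mt1 had 529 and 347 CPM in the cisplatin lungs, with 97.5, 147 and 185 CPM as the lowest, median and highest of the others (log2 fold change 1.60 ± 0.12, edgeR adjusted p 2.16e-08). Mt2 had 381 and 226 CPM in the cisplatin lungs, against 21.8, 56.1 and 126 CPM (2.27 ± 0.20). Both lay above all 14 others in each cisplatin lung, and both rose further in heart, with differences of -1.2 ± 0.23 and -1.70 ± 0.35 for lung minus heart. Both differences lost their calls without lung cisplatin replicate 3 (edgeR adjusted p 0.071 and 0.097), without heart replicate 1 (0.094 and 0.060) and against CMCTween alone (0.23 and 0.25), and that of Mt2 did by DESeq2 (adjusted p 0.075). Lrrc8a rose by 0.69 ± 0.17 and lost its call without either cisplatin library (edgeR adjusted p 0.14 and 0.15). The promoters of both metallothioneins (RefSeq, GRCm38.p6, chr8:94178839-94179138 and chr8:94172368-94172667, plus strand) are shown because they are dense in TGCNCNC, in capitals on either strand. This is a looser form of the core of the metal response element, TGCRCNC, where R is A or G.
Mt1: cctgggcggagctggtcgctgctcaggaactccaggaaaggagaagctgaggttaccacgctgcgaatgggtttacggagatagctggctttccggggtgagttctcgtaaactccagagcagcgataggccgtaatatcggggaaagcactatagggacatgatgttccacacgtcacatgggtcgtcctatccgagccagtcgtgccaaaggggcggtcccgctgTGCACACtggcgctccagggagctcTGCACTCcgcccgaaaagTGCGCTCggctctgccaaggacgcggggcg
Mt2: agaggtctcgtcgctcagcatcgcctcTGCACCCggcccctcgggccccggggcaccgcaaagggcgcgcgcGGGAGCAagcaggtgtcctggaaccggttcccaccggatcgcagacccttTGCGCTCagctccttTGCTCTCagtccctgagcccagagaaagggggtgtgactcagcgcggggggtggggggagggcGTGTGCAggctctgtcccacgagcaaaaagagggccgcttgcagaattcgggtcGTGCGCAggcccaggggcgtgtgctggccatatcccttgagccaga
Mt1 held 3 matches, and 7.1% of all windows held 3 or more. Mt2 held 6, and 0.225% of all windows held 6 or more. These counts are of the looser form, and the Mt2 matches TGCTCTC and GGGAGCA fit only that form. This motif was chosen after the values of both genes had been seen.

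Targets of the glucocorticoid receptor, which answer to the adrenal stress hormone, were higher as a group. All 18 members were tested, 10 were higher and 0 lower, and the median log2 fold change was 0.74. Mt1 and Mt2, described above, are also members. The summed level of the list was 6052 and 5755 CPM in the cisplatin lungs, against 1897 to 4928 CPM in the others. Fkbp5, a co-chaperone of the receptor, had 160 and 129 CPM in the cisplatin lungs, with 12.8, 32.2 and 97.6 CPM as the lowest, median and highest of the others (log2 fold change 1.89 ± 0.22, edgeR adjusted p 4.99e-06). Angptl4, an inhibitor of lipoprotein lipase, had 102 and 90.5 CPM, against 16.4 to 68.5 CPM (1.60 ± 0.18), and Sult1a1, a sulfotransferase, had 109 and 107 CPM, against 14.1 to 60.5 CPM (1.58 ± 0.25). Both cisplatin lungs were above all others for these 3 genes, although the others spread widely. Sgk1, a kinase that regulates sodium channels, rose by 1.14 ± 0.18 and Ddit4, an mTORC1 inhibitor, by 1.19 ± 0.30. Klf9 rose by 0.55 ± 0.14, Dusp1, a phosphatase of MAP kinases, by 0.57 ± 0.13 and Nfkbia, the inhibitor of NF-kappa-B, by 0.61 ± 0.19. Tsc22d3, another target, had 483 and 502 CPM in the cisplatin lungs, against 114 to 544 CPM, and did not pass (0.56 ± 0.25). Dusp1, Klf9, Ddit4 and Nfkbia lost their calls without either cisplatin library (edgeR adjusted p 0.11 to 0.30), and 5 of the 18 were called against CMCTween alone, where Fkbp5 had an edgeR adjusted p of 0.12. Nfkbia also lost its call without either CMCTween or Dox library and without Clozapine replicate 3, EMPA replicate 1 or Repatha replicate 1 (0.052 to 0.075).

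The clock list showed 3 higher genes and 1 lower gene of 12 tested, against 4.25% higher and 3.72% lower over all genes. Nr1d1, the repressor REV-ERB alpha, had 33.2 and 32.3 CPM in the cisplatin lungs, against 51.1 to 120 CPM in the others (log2 fold change -1.37 ± 0.19, edgeR adjusted p 6.18e-05). Nr1d1 overlaps Thra on the opposite strand, and the strand setting of the counts is not given in the sources used here. Cry1, a repressor of the opposite arm, had 40.8 and 39.6 CPM in the cisplatin lungs, against 8.53 to 34.8 CPM (1.22 ± 0.31), and Tef, a PAR bZIP factor, rose by 0.65 ± 0.14. Per2, a period gene, had 161 and 187 CPM, against 61.6 to 154 CPM (0.70 ± 0.21, edgeR adjusted p 0.048). Cry1 lost its call without either cisplatin library (edgeR adjusted p 0.19 and 0.14) and Tef without replicate 3 (0.20). Per2 lost it without either cisplatin library (0.21 and 0.39) and without either CMCTween, Clozapine or Dox library, EMPA replicate 1, Lenalidomide replicate 4 or Repatha replicate 1 (0.053 to 0.075). Against CMCTween alone Cry1, Tef and Per2 lost their calls (edgeR adjusted p 0.14, 0.10 and 0.49). With the 14 others fitted as 1 group Tef and Per2 did (0.27 and 0.083). By DESeq2 Cry1 and Per2 did (adjusted p 0.12 each). Nr1d1 kept its call in every setting tried. The hour of sampling was not given for any group. The E-box CACGTG occurred in 6 of the 18 windows of the clock list (33.3%), against 7.15% of all windows. The D-box TTATGTAA (either strand) occurred in 1 of the 18 (5.56%), against 0.938%. The 18 windows belonged to 13 members, of which 5 held the E-box and 1 the D-box.

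Among genes of inflammation and acute response, 4 of 7 tested were higher and 0 lower. Lcn2, the siderophore-binding lipocalin 2, had 171 and 104 CPM in the cisplatin lungs, against 23.1, 44.0 and 63.5 CPM as the lowest, median and highest of the others (log2 fold change 1.70 ± 0.19, edgeR adjusted p 5.04e-06). Socs3, an inhibitor of cytokine signalling, rose by 0.82 ± 0.18 and lost its call without cisplatin replicate 1 (edgeR adjusted p 0.17). The count of 4 was 1 without replicate 1 and 2 without replicate 3. Cytokine genes such as Il6, Ccl2, Cxcl1 and Ptgs2 were under 5 CPM in each cisplatin lung and were not tested. Serpina3n, an acute-phase serine protease inhibitor named here after its values were seen, had the smallest p of all genes. It had 262 and 163 CPM in the cisplatin lungs, against 22.5, 34.2 and 44.9 CPM (2.63 ± 0.15, edgeR adjusted p 5.59e-10).

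**Figure D4:**
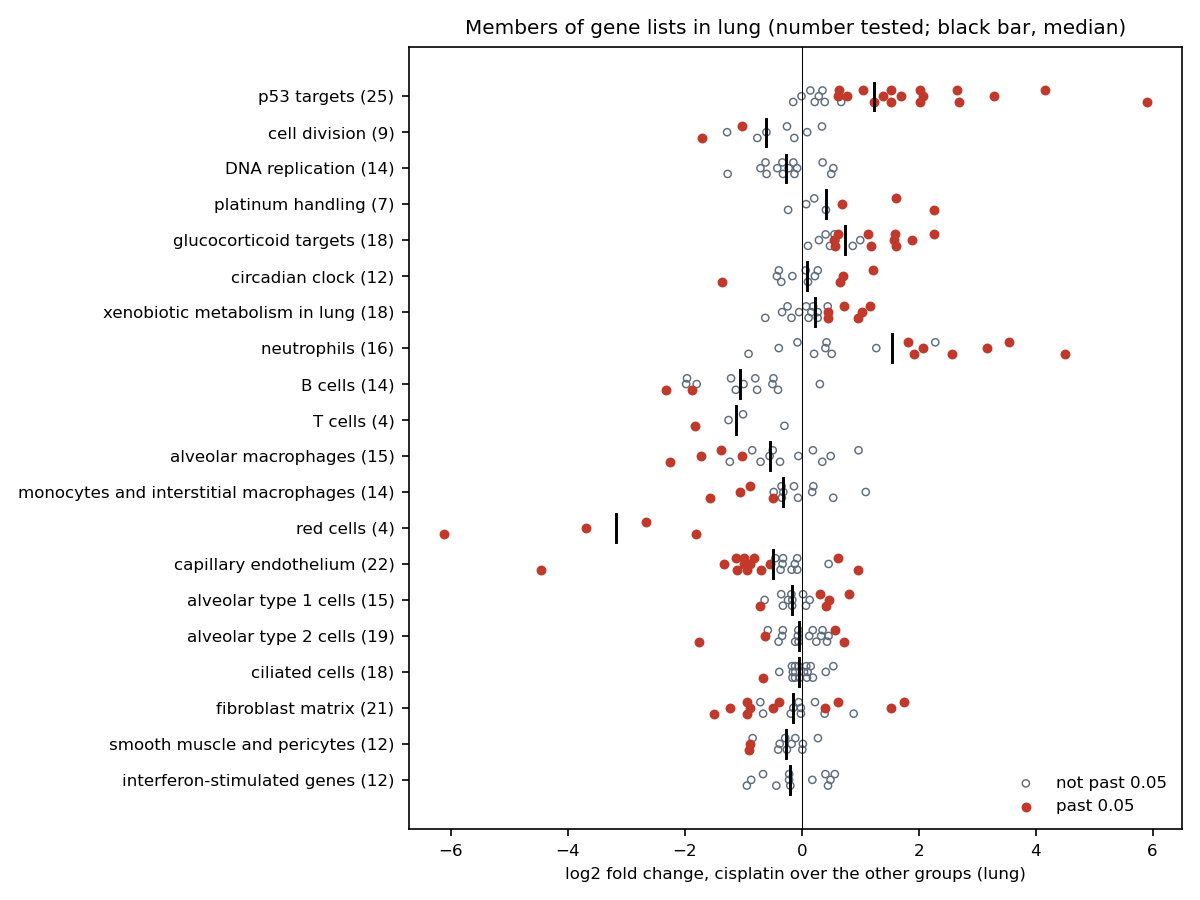
Log2 fold change of each tested member of 20 gene lists in lung, with the number tested in brackets and the median as a black bar. Filled points passed the test, open points did not. Members of the p53, glucocorticoid and neutrophil lists lie mostly to the right of 0, and those of the red cell, B cell and capillary lists mostly to the left.

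Neutrophil genes were higher in the cisplatin lungs, but unequally in the pair. Of 20 members 16 were tested, 7 were higher and 0 lower, with a median log2 fold change of 1.54. Their summed level was 2287 CPM in cisplatin replicate 1 and 973 CPM in replicate 3, against 304 to 1369 CPM in the others, so that replicate 3 lay within their range. The highest of the others was a Clozapine library. S100a8, a subunit of calprotectin, had 809 and 278 CPM in the cisplatin lungs, with 23.0, 109 and 415 CPM as the lowest, median and highest of the others (log2 fold change 2.58 ± 0.20, edgeR adjusted p 2.56e-08). Retnlg, a resistin-like protein, had 321 and 99.4 CPM, against 3.29 to 102 CPM (3.54 ± 0.26), and S100a9 had 448 and 195 CPM, against 23.0 to 356 CPM (1.92 ± 0.19). For these 3 genes only replicate 1 was above all other lungs. When the 14 others were fitted as 1 group, S100a9 lost its call (edgeR adjusted p 0.097), as did Clec4d of the same list (0.21). Il1r2, the decoy receptor for interleukin 1, and Mmp8, the neutrophil collagenase, were above all 14 others in both cisplatin lungs. Il1r2 had 57.0 and 10.5 CPM in the cisplatin lungs, against at most 8.58 CPM (4.51 ± 0.61), and Mmp8 had 95.9 and 21.8 CPM, against at most 16.4 CPM (3.17 ± 0.41). The granule genes of immature neutrophils, Ltf, Camp and Ngp, did not pass the test. Ltf, the lactoferrin gene, had 9.50 and 14.6 CPM in the cisplatin lungs, against 12.9 to 37.9 CPM (-0.91 ± 0.29, edgeR adjusted p 0.060). Without cisplatin replicate 1 the count was 3, with Mmp8, Mmp9 and Clec4d lost (edgeR adjusted p 0.12, 0.055 and 0.60) and Il1r2 below the filter on low counts and not tested, and without replicate 3 it was 9.

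Most lymphocyte markers had negative log2 fold changes, with few calls. Of 14 tested B cell genes 2 were lower and 0 higher, and the median log2 fold change was -1.06. The share of lower genes over all genes tested was 3.72%. The summed level of the list was 127 and 132 CPM in the cisplatin lungs, against 148 to 388 CPM, so that both lay below all 14 others. Ms4a1, which encodes CD20, had 1.90 and 4.85 CPM in the cisplatin lungs, with 2.19, 20.2 and 42.3 CPM as the lowest, median and highest of the others (log2 fold change -2.32 ± 0.53, edgeR adjusted p 0.0073), so that replicate 3 overlapped them. Bank1, a scaffold of the B cell receptor, had 3.80 and 2.42 CPM in the cisplatin lungs, against 4.21 to 30.8 CPM (-1.88 ± 0.55, edgeR adjusted p 0.037). Cd79b, a chain of the receptor, had 0.95 and 4.04 CPM, against 1.4 to 18 CPM, and missed the threshold (-1.80 ± 0.58, edgeR adjusted p 0.060). Among 4 tested T cell genes, Bcl11b, a T cell transcription factor, was lower (-1.83 ± 0.39), and Ccr7 (-1.25 ± 0.44) and Lef1 (-1.0 ± 0.36) did not pass. The summed T cell level was 71.2 and 71.1 CPM in the cisplatin lungs, against 84.4 to 172 CPM in the others. Bcl11b lost its call without cisplatin replicate 1 (edgeR adjusted p 0.056) or 3 (0.13), Ms4a1 without replicate 1 (0.20), and Bank1 without either (0.21 and 0.33) and without CMCTween replicate 3, Clozapine replicate 3, EMPA replicate 2 or either Dox library (0.051 to 0.061).

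The genes of MHC class II antigen presentation, looked at after their values had been seen, were lower together. Of 7 tested, 6 were lower, and their summed level was 464 and 520 CPM in the cisplatin lungs, against 1166, 1436 and 1916 CPM as the lowest, median and highest of the others. Cd74, the invariant chain, had 108 and 112 CPM in the cisplatin lungs, against 218 to 504 CPM (log2 fold change -1.54 ± 0.16, edgeR adjusted p 2.30e-06). The chains H2-Aa (-1.34 ± 0.13), H2-Ab1 (-1.78 ± 0.14) and H2-Eb1 (-1.86 ± 0.17) fell too, as did H2-DMa (-2.15 ± 0.30), which helps load peptides. For each of the 6 genes, H2-DMb1 included, both cisplatin lungs were below all 14 others, and H2-Ob did not pass (-1.98 ± 0.70). H2-DMb1 lost its call without cisplatin replicate 1 (edgeR adjusted p 0.20). The summed B cell list moved with them, at 127 and 132 CPM in the cisplatin lungs, against 148 to 388 CPM in the others, and its part in the result was not tested. Guanylate-binding proteins, interferon-inducible GTPases that were also looked at afterwards, were lower in 4 of 6 tested. Gbp7 had 58.9 and 56.6 CPM in the cisplatin lungs, against 89.9 to 149 CPM (-0.96 ± 0.18), Gbp2 fell by 1.09 ± 0.27, and Gbp4 (-2.17 ± 0.43) and Gbp9 overlap in the annotation, so that their reads may be split. Without cisplatin replicate 1 Gbp2 and Gbp4 lost their calls (edgeR adjusted p 0.30 and 0.10), and without replicate 3 Gbp2, Gbp7 and Gbp9 did (0.076, 0.053 and 0.11). Of 12 tested members of the interferon list 0 passed the edgeR test.

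A few macrophage genes were lower. Of 15 alveolar macrophage genes 4 were lower and 0 higher, against 3.72% lower over all genes tested. Ear2, an eosinophil-associated ribonuclease, had 10.4 and 9.70 CPM in the cisplatin lungs, against 28.1 to 70.2 CPM (log2 fold change -2.25 ± 0.28, edgeR adjusted p 1.48e-05), and its close paralog Ear1 fell by 1.73 ± 0.28. The counting of reads that fit both paralogs is not given in the sources used here. Abcg1, a cholesterol transporter, fell by 1.03 ± 0.21, and Pparg, the transcription factor of these cells, by 1.39 ± 0.39. Marco, a scavenger receptor, had 24.7 and 15.4 CPM in the cisplatin lungs, against 3.56 to 20.8 CPM, and Chil3, a chitinase-like protein, had 403 and 247 CPM, against 140 to 322 CPM. Neither passed (0.97 ± 0.37 and 0.49 ± 0.19). Of 14 monocyte and interstitial macrophage genes 4 were lower, among them Cx3cr1, the fractalkine receptor (-1.58 ± 0.44), and Csf1r (-0.49 ± 0.13). Without cisplatin replicate 1 Pparg and Abcg1 lost their calls (edgeR adjusted p 0.27 and 0.15), as did all 4 of the monocyte list (0.080 to 0.27). Without replicate 3 Pparg and the same 4 genes lost theirs (0.053 to 0.48).

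Red cell genes had the lowest median of the lists. Of 10 members 4 were tested and all 4 were lower, with a median log2 fold change of -3.18, while the 6 globin genes were listed at 0 in all 16 libraries. Alas2, the first enzyme of haem synthesis in erythroid cells, had 1.90 and 0.81 CPM in the cisplatin lungs, with 58.5, 84.4 and 476 CPM as the lowest, median and highest of the others. This was 3 counts against 1541, a ratio of 0.012 (95% interval 0.0026 to 0.036 for counting error, edgeR adjusted p 2.95e-06). Alas2 overlaps Apex2 on the opposite strand, so that the 2 may share reads. Bpgm, which makes 2,3-bisphosphoglycerate, had 15.2 and 13.7 CPM in the cisplatin lungs, against 33.7, 43.9 and 196 CPM (-1.81 ± 0.34). Slc4a1, the band 3 anion exchanger, gave 1 count in the cisplatin lungs against 114 in the others (ratio 0.056, interval 0.0014 to 0.32). No library of the 14 reached down to either cisplatin library for any of these genes. The highest summed level, 812 CPM, was in Lenalidomide replicate 4, and the sums of the other 13 began at 118 CPM. Slc4a1 lost its call without cisplatin replicate 1 (edgeR adjusted p 0.077) or 3 (0.23). In spleen all 4 were lower as well, and in heart 3 of 4, and no difference in response between lung and either tissue passed the test.

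**Figure D5:**
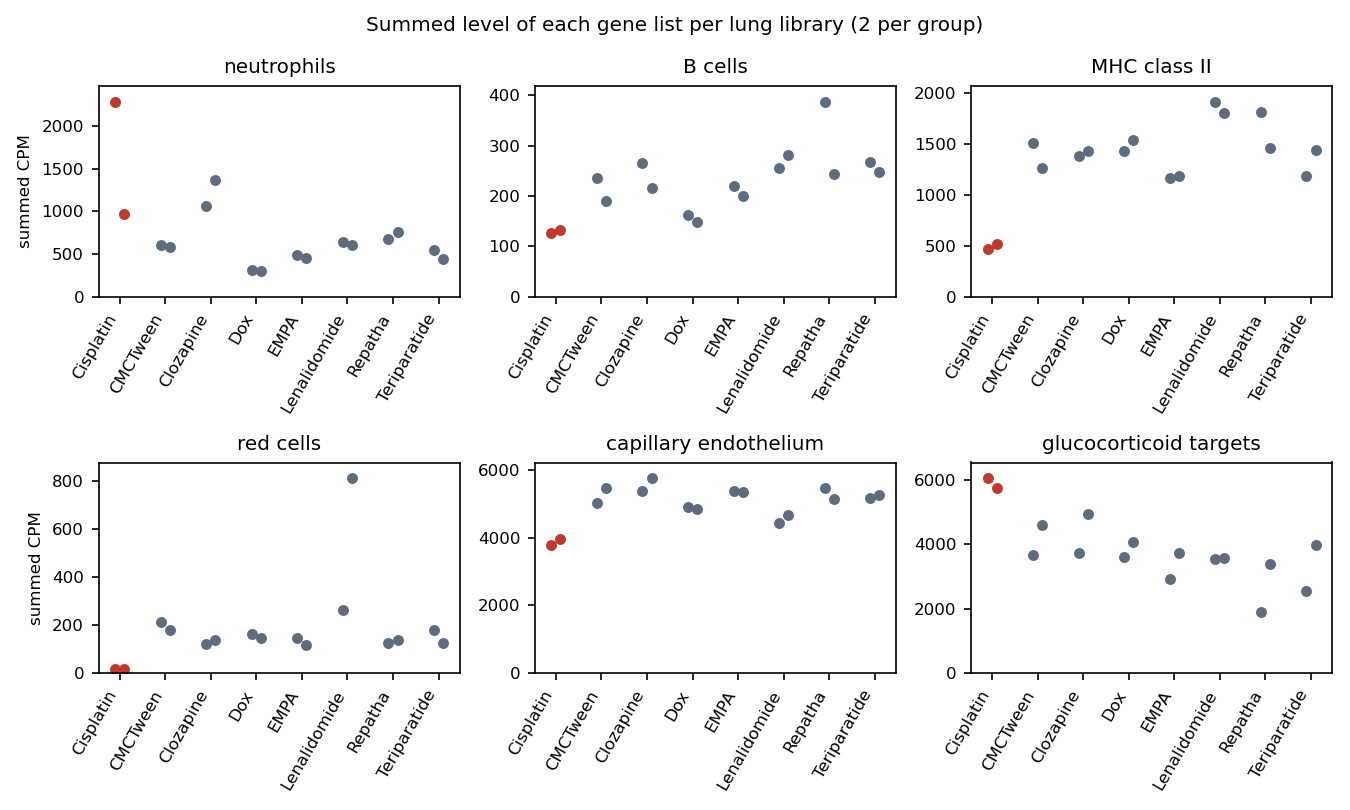
Summed CPM of 6 gene groups in each lung library, with cisplatin (red) at the left and 2 points a group. Cisplatin replicate 1 is highest for neutrophils and replicate 3 lies within the range of the others, while both are below all others for B cells, MHC class II, red cells and capillary endothelium and above them for glucocorticoid targets.

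Capillary endothelium was the structural compartment with most calls. All 22 members were tested, 11 were lower and 2 higher, with a median log2 fold change of -0.50. Their summed level was 3788 and 3957 CPM in the cisplatin lungs, against 4419 to 5753 CPM. Ptprb, the endothelial phosphatase VE-PTP that restrains the angiopoietin receptor, had 425 and 411 CPM in the cisplatin lungs, with 798, 1075 and 1263 CPM as the lowest, median and highest of the others (log2 fold change -1.33 ± 0.10, edgeR adjusted p 2.16e-08). Tek, that receptor itself, had 47.5 and 58.2 CPM, against 74.4 to 141 CPM (-0.99 ± 0.16). Both partners were below all 14 others in each cisplatin lung. Plvap, the diaphragm protein of fenestrae and caveolae, had 122 and 128 CPM in the cisplatin lungs, against 237 to 326 CPM (-1.13 ± 0.12), and Gpihbp1, which anchors lipoprotein lipase, had 50.3 and 68.7 CPM, against 96.8 to 147 CPM (-1.10 ± 0.14). Aplnr, the apelin receptor, gave 1 count in the cisplatin lungs against 194 in the others (ratio 0.033, interval 0.00083 to 0.19), and its ligand Apln fell by 0.94 ± 0.28. Car4, the carbonic anhydrase of the aerocyte capillary cell, fell by 0.81 ± 0.19. Aqp1, a water channel of the same vessels named after its values were seen, had 169 and 226 CPM in the cisplatin lungs, against 513, 633 and 769 CPM (-1.68 ± 0.13).

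Other endothelial genes did not pass or rose. Pecam1 had 488 and 448 CPM in the cisplatin lungs, against 434 to 544 CPM, and Cdh5, VE-cadherin, had 215 and 246 CPM, against 227 to 348 CPM (log2 fold change -0.33 ± 0.12, edgeR adjusted p 0.091). Prx, periaxin, rose by 0.62 ± 0.13 and Cyp4b1, a cytochrome P450, by 0.96 ± 0.11. Mmrn2, an extracellular matrix protein of endothelium named after its values were seen, had 246 and 179 CPM in the cisplatin lungs, against 42.8, 57.4 and 71.5 CPM (1.90 ± 0.14, edgeR adjusted p 1.76e-08). It lies next to Sncg (chr14:34370274-34374789), on the opposite strand and without overlap, and Sncg, gamma-synuclein, had 52.2 and 44.5 CPM, against 2.45 to 9.99 CPM (3.08 ± 0.24). The count of 11 lower genes was 7 without either cisplatin library. Ednrb, Apln, Emcn, Car4 and Prx lost their calls without replicate 1 (edgeR adjusted p 0.23 to 0.52), and Cd93, Sox17, Apln and Emcn without replicate 3 (0.065 to 0.28). Apln also lost it without CMCTween replicate 3, Clozapine replicate 4, Dox replicate 4, either EMPA library or Repatha replicate 3 (0.053 to 0.061). Against spleen, the response of Gpihbp1 (difference -2.41 ± 0.27), Ptprb (-1.94 ± 0.16), Plvap (-1.21 ± 0.19) and Sox17 (-1.70 ± 0.44) was lower in lung. Gpihbp1 and Ptprb rose in the spleen (1.30 ± 0.22 and 0.61 ± 0.11). Against heart, Gpihbp1, Ptprb, Sox17 and Car4 were lower in lung (differences -0.76 to -1.76), and Kdr, the main VEGF receptor, was higher (1.03 ± 0.22), as it fell in heart (-1.16 ± 0.18) and had 350 and 367 CPM in the cisplatin lungs, against 283 to 554 CPM. With CMCTween alone as reference Gpihbp1, Ptprb, Sox17 and Car4 lost these calls (edgeR adjusted p 0.052 to 0.415), and Kdr did not. All 5 differences from heart lost their calls without heart cisplatin replicate 1 (edgeR adjusted p 0.056 to 0.65), Kdr and Car4 without heart replicate 3 (0.065 and 0.20), Car4 without lung replicate 1 (0.23) and with the replicate block (0.093), and Ptprb without lung replicate 3 (0.060). Of those from spleen only Sox17 lost its call, without lung replicate 3 or either spleen library (0.13 to 0.27) and against CMCTween alone (0.22).

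Some genes of the alveolar epithelium were higher and others lower. Of 19 type 2 cell genes 2 were higher and 2 lower, and the median was -0.06. Over all genes tested, 4.25% were higher and 3.72% lower. The collectins of surfactant rose, Sftpa1 to 5394 and 4789 CPM in the cisplatin lungs, against 2577 to 4438 CPM (log2 fold change 0.56 ± 0.10), and Sftpd to 1374 and 1184 CPM, against 643 to 973 CPM (0.72 ± 0.09). Sftpb had 1308 and 1260 CPM in the cisplatin lungs, against 826 to 1317 CPM, and did not pass (0.36 ± 0.12, edgeR adjusted p 0.083). Hc, which encodes complement component C5, had 88.3 and 114 CPM in the cisplatin lungs, with 277, 343 and 448 CPM as the lowest, median and highest of the others (-1.75 ± 0.13, edgeR adjusted p 2.16e-08). Cxcl15, lungkine, had 1200 and 1202 CPM, against 1654 to 2349 CPM (-0.63 ± 0.11). Of 15 type 1 cell genes 4 were higher and 1 lower. Pdpn, podoplanin, had 422 and 389 CPM in the cisplatin lungs, against 190 to 319 CPM (0.80 ± 0.11), and Cldn18, a tight junction claudin, had 702 and 795 CPM, against 1031 to 1371 CPM (-0.71 ± 0.10). Emp2, a tetraspan membrane protein of the same cells, did not pass (-0.35 ± 0.12). In both epithelial lists genes above and below the range of the other lungs stood side by side. Sftpa1 lost its call without cisplatin replicate 1 (edgeR adjusted p 0.083). Of the 4 higher type 1 cell genes, Ager, Hopx and Akap5 lost theirs without replicate 1 (0.13 to 0.26) and Ager and Hopx without replicate 3 (0.23 and 0.39), and Hopx also did without any 1 library of CMCTween, Clozapine, Dox, EMPA or Repatha (0.056 to 0.086).

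Metabolic genes of the lung were higher in part. Of 18 tested genes of xenobiotic metabolism 6 were higher and 0 lower, against 4.25% and 3.72% over all genes tested. Fmo2, the flavin monooxygenase of lung, had 2215 and 2183 CPM in the cisplatin lungs, with 557, 952 and 1336 CPM as the lowest, median and highest of the others (log2 fold change 1.17 ± 0.16, edgeR adjusted p 4.32e-05). Gsta3, a glutathione transferase, had 331 and 320 CPM, against 112 to 250 CPM (1.03 ± 0.13). Of 14 tested NRF2 targets 2 were higher, Ephx1, microsomal epoxide hydrolase, by 1.07 ± 0.11 and Gsr, glutathione reductase, by 0.86 ± 0.19, while Gclc, of glutathione synthesis, did not pass (-0.38 ± 0.20). Without cisplatin replicate 1 Gsr lost its call (edgeR adjusted p 0.45), and 3 genes of xenobiotic metabolism were called, with Cyp2b10, Ces1d and Sult1d1 lost (0.16 to 0.36). Cyp2b10 and Sult1d1 were also lost without replicate 3 (0.40 and 0.31) and each without 7 or 8 single libraries of other groups, either CMCTween and either EMPA library among them (0.053 to 0.073). Of 17 tested genes of fatty acid and cholesterol synthesis only Scd1, stearoyl-CoA desaturase, passed, with 312 and 353 CPM in the cisplatin lungs, against 481 to 1022 CPM (-1.04 ± 0.14). This count is near the share of 3.72% lower over all genes.

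Of 21 tested matrix genes, 4 were higher and 7 lower, against 4.25% and 3.72% over all genes tested. Lox, the enzyme that crosslinks collagen and elastin, had 137 and 98.6 CPM in the cisplatin lungs, with 16.6, 33.3 and 72.1 CPM as the lowest, median and highest of the others (log2 fold change 1.74 ± 0.19, edgeR adjusted p 3.63e-06), and Spp1, osteopontin, had 80.7 and 105 CPM, against 14.2 to 59.9 CPM (1.52 ± 0.23). Postn, periostin, fell by 1.23 ± 0.19, Loxl1 by 0.89 ± 0.16 and Col3a1 by 0.94 ± 0.19, and Col1a1 did not pass (-0.66 ± 0.24). Without cisplatin replicate 1 the counts were 2 higher and 2 lower, with Col1a2, Col3a1, Mfap2, Mfap4, Dcn, Fn1 and Eln lost (edgeR adjusted p 0.080 to 0.53), and without replicate 3 they were 3 and 3, with Col1a2, Col3a1, Mfap2, Dcn and Fn1 lost (0.053 to 0.16). Dcn and Fn1 were also lost without single libraries of other groups (Dcn without either CMCTween, Clozapine, Dox or EMPA library or Repatha replicate 3, Fn1 without Dox replicate 3 or either EMPA library, 0.051 to 0.068), and 3 lower genes were called against CMCTween alone. Acta2, smooth muscle actin, had 126 and 175 CPM in the cisplatin lungs, against 200 to 432 CPM (-0.90 ± 0.13).

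Of the 30 genes with the largest changes by the rule for named genes, 15 in each direction, the others described here were a mixed group. Celf5, an RNA-binding protein, had 16.1 and 21 CPM in the cisplatin lungs, against at most 2.57 CPM in the others (log2 fold change 4.92 ± 0.56). Clca3a1, a chloride channel accessory protein, had 57.9 and 40.4 CPM, against at most 8.42 CPM (4.26 ± 0.34). Pla1a, a phosphatidylserine phospholipase, rose by 3.89 ± 0.49, and Adm, the vasodilator peptide adrenomedullin, by 3.06 ± 0.31. The responses of Pla1a, Sncg and Adm were larger in lung than in heart, by 4.04 ± 0.58, 2.96 ± 0.45 and 2.25 ± 0.40. The difference for Adm lost its call against CMCTween alone (edgeR adjusted p 0.065). Ces2e, a carboxylesterase, rose by 3.38 ± 0.41. Cyp26b1, which degrades retinoic acid, had 268 and 264 CPM in the cisplatin lungs, against 1.34, 39.4 and 182 CPM (2.82 ± 0.38), so that the other lungs themselves spread widely. Among the lower genes, Plcb1, a phospholipase C, had 9.50 and 13.7 CPM in the cisplatin lungs, against 33.0 to 83.9 CPM (-2.32 ± 0.30), and Pydc3, an interferon-inducible pyrin domain protein, had 2.85 and 4.04 CPM, against 10.7 to 48.1 CPM (-3.08 ± 0.36). Slamf7, a leukocyte receptor, Slc5a12, a lactate transporter, and the neuronal adhesion genes Clstn2 and Ctnnd2 each gave 1 count in the cisplatin lungs, against 162 to 184 counts in the others (ratios 0.035 to 0.039). Gpr183, an oxysterol receptor of lymphocytes, gave 2 counts against 137 (ratio 0.093, interval 0.011 to 0.34), and Fermt3, kindlin 3 of blood cells, 2 against 129 (ratio 0.099, interval 0.012 to 0.36). Gpr183 overlaps Ubac2 and Fermt3 overlaps Trpt1, each on the opposite strand, so that their reads may be shared. Abcg3, an ABC transporter, gave 3 counts against 152, and Grp, gastrin-releasing peptide, 2 against 112. Without cisplatin replicate 1 Gpr183, Fermt3, Abcg3 and Grp lost their calls (edgeR adjusted p 0.064 to 0.26), and without replicate 3 Gpr183 and Slamf7 did (0.073 and 0.059).

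Transcripts of testis and liver were present at uneven levels. The summed testis list was 131 and 0.81 CPM in the cisplatin lungs, against 1.36 to 157 CPM in the others, and the liver list was 2.85 and 209 CPM, against 2.14 to 368 CPM. No gene of either list passed. Genes of heart muscle were present in every lung, at a summed 269 and 305 CPM in the cisplatin lungs and 254 to 699 CPM in the others. Which cells they came from was not tested. Of 11 tested genes of heart muscle 3 were lower, against 3.72% over all genes. Among them was Myl7, the atrial myosin light chain, with 17.1 and 22.6 CPM in the cisplatin lungs, against 37.0, 68.2 and 112 CPM as the lowest, median and highest of the others (log2 fold change -1.72 ± 0.21). The count was 1 without cisplatin replicate 1, where Myl4 and Actc1 were lost (edgeR adjusted p 0.18 and 0.43), and 2 without replicate 3, where Myl4 was (0.14). Against CMCTween alone Myl7, Myl4 and Actc1 all lost their calls (edgeR adjusted p 0.10, 0.57 and 0.71). Actc1 also lost its call with the other lungs fitted as 1 group (edgeR adjusted p 0.065). Nppa, the atrial natriuretic peptide, did not pass (-2.04 ± 0.67, edgeR adjusted p 0.065).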

How the data were processed

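Per the labels, RNA of each tissue was sequenced with the QuantSeq 3′ kit. The deposited values are raw read counts per gene. Per the submitters' processing notes, the tools were bcl2fastq 2.17, TopHat2 2.1.1 and HTSeq 0.9.1 with build mm10. The strand setting is not given in the sources used here. Groups come from the labels.

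The 16 lung libraries were fitted with edgeR 4.0.16 (R 4.3.3): filterByExpr with a minimum count of 10, TMM scaling, 1 mean a group, quasi-likelihood F test of cisplatin minus the equally weighted mean of the 7 other groups, and Benjamini-Hochberg adjustment over all genes tested. The SE of a log2 fold change was taken from it and its F statistic. CPM use TMM-scaled library sizes. Responses in lung and in heart or spleen were compared by an interaction contrast in joint fits. Genes with up to 3 cisplatin counts are given as ratios with exact 95% intervals, which cover counting error only. Named genes were the 15 in each direction with the largest change among those past the test, with both cisplatin libraries outside the range of the 14 and a mean of at least 5 CPM, plus list members. The lists and members were chosen with earlier results of these data known. Gene positions are those of the mm10 annotation, matched by symbol. Alternatives were other scalings, filters, references and designs, DESeq2 1.42.0, and leaving out each library (in the joint fits, each cisplatin library). The fits were tested on simulated data. A few genes of the lists are not reported here.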

Additional observations from a re-analysis of the deposited data

Results flagged for a closer look

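The response to cisplatin differed between lung and heart for 289 genes and between lung and spleen for 288, by the interaction test of edgeR. Differences are given as lung minus the other tissue, on the log2 scale. Against heart they were 1.35 for Mdm2, 2.20 for Ccng1, 3.43 for Eda2r and 2.05 for Aen among p53 targets, and -1.2 for Mt1 and -1.70 for Mt2. Among endothelial genes they were -1.21 for Gpihbp1, -0.76 for Ptprb, -1.76 for Sox17, 1.03 for Kdr and -1.36 for Car4. Among the genes named for the size of their change they were 4.04 for Pla1a, 2.96 for Sncg and 2.25 for Adm. Of all these, only Ccng1, Aen, Pla1a and Sncg kept their calls in every setting in which they were tested.

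Against spleen the differences were 0.93 for Ccng1, 2.1 for Trp53inp1, 1.49 for Aen and 0.75 for Btg2. Among endothelial genes they were -2.41 for Gpihbp1, -1.21 for Plvap, -1.94 for Ptprb and -1.70 for Sox17. They were 4.82 for Gtse1, 2.89 for Clca3a1, 3.95 for Adm, 2.87 for Ckap2, -2.80 for Pydc3 and -2.72 for Plcb1. Gtse1, Clca3a1 and Pydc3 kept their calls in every setting in which they were tested. Ckap2 lost its call without any 1 of the 4 cisplatin libraries (edgeR adjusted p 0.082 to 0.20), Plcb1 without lung replicate 1 or either spleen cisplatin library (0.083 to 0.23) and Adm without spleen replicate 3 (0.054).

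The aripiprazole lungs, which enter no comparison, held 8 testis transcripts at a summed 3479 and 2999 CPM. The 6 control lungs held 0.178 to 90.6 CPM, and the highest other lung held 182.7 CPM.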

How the results depend on the processing

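Counts are of genes higher and lower in cisplatin lungs, against 447 and 391. DESeq2 gave 220 and 225, and CMCTween alone as reference gave 132 and 174. A reference less Teriparatide and Lenalidomide, chosen after seeing the data, gave 726 and 605. Leaving out 1 library gave 158 to 615 higher and 103 to 521 lower, lowest without cisplatin replicate 1 and highest without Teriparatide replicate 1. The cause was not tested. For the 289 genes that differed from heart, CMCTween alone gave 67 and leaving out 1 of the 4 cisplatin libraries 79 to 198. For the 288 that differed from spleen, DESeq2 gave 185, CMCTween alone 94 and leaving out 1 of the 4 cisplatin libraries 125 to 161. With CMCTween alone, the difference of Eda2r against heart was -0.21 and that of Cdkn1a against spleen -0.33. Of 144 called genes examined, 62 kept their call in every setting in which they were tested. Under CMCTween alone 62 lost it and under DESeq2 38, and 0 reversed. A gene not tested in a setting counted there neither as kept nor as lost, as with Gdf15 and Il1r2. The deviations of same-numbered lung libraries correlated at -0.056 to 0.13 over 8 pairs of groups. For cisplatin with Repatha, the only pair with cisplatin, the correlation was -0.044. Such values show no strong pairing by replicate number in lung, but at this depth they cannot exclude it. With the replicate block the counts were 415 and 361, with 227 genes against heart and 265 against spleen. In the joint fits the block was set within each tissue, so that it cannot address pairing across tissues. With 2 cisplatin libraries of 1017753 and 1195002 counts, changes of genes near 1 CPM are poorly measured.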
